A study of Mus musculus with 6 samples.

Results

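Natural killer (NK) receptors and the small adaptor chains through which they signal were followed in thymocytes of mice in which Tox was targeted. The set was given by gene symbol. It holds 10 of the 22298 genes in the files: the receptors Klrk1, Klrb1c, Klrb1b, Klrc2, Klra5, Klrd1 and Ncr1, and the adaptors Hcst, Tyrobp and Fcer1g. These genes were picked with earlier results of the comparison of genotypes in view, so their differences between genotypes are a description and not a test. RNA was sequenced in sorted C57BL/6 thymocytes titled double-negative (DN, precursors with neither CD4 nor CD8 at the surface), which the protocol calls DN2. The 3 Toxf/fPdcd1Cre samples came from mice with a floxed Tox gene and a Cre recombinase named for Pdcd1, and the 3 Toxf/f samples from mice with the floxed gene and no labelled Cre. All 6 samples were untreated. In each genotype, mice were aged 3 weeks for replicates 1 and 2 and 4 weeks for replicate 3. No label says whether samples were single mice or pools, or in which cells the Cre had acted, and p-values therefore reflect no more than how these samples vary, which may be technical.

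NK cells are steered by pairs of activating and inhibitory receptors. The activating receptors have short tails with no signalling motif. They are held in the membrane beside an adaptor with a charged residue, and the adaptor carries the tyrosines that kinases phosphorylate. DAP10, the product of Hcst, recruits phosphatidylinositol 3-kinase and Grb2, while DAP12, the product of Tyrobp, and the Fc receptor gamma chain, the product of Fcer1g, hold an ITAM motif that recruits Syk and Zap70. Some gamma-delta and innate-like T cells carry the same receptors, and macrophages, dendritic cells and mast cells use Tyrobp and Fcer1g with other receptors.

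Toxf/f replicates 1 and 2 were deposited with the same values for every gene. They entered as 1 library, which left 3 Toxf/fPdcd1Cre libraries and 2 Toxf/f libraries. Total estimated counts per library lay between 14245492 and 16199195. Tox stood at 4.98, 4.01 and 3.34 FPKM (a level per unit of transcript length and of sequencing depth) in Toxf/fPdcd1Cre libraries, against 31.05 and 27.47 FPKM in Toxf/f libraries, a log2 fold change of -2.78 ± 0.161 (SE). Transcripts of the coreceptor Cd4 were at 237 to 306 FPKM in Toxf/fPdcd1Cre and 281 to 296 FPKM in Toxf/f libraries, and those of Cd8a at 547 to 639 FPKM in Toxf/fPdcd1Cre and 473 to 614 FPKM in Toxf/f libraries, which goes against libraries of double-negative cells alone. Toxf/fPdcd1Cre replicate 1 stood apart from the other libraries. It held 1 count of the chromosome Y gene Ddx3y, against 843 and 1033 counts in the other Toxf/fPdcd1Cre libraries and 1105 and 1354 in Toxf/f libraries, so results that rest on it are also given without it.

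Transcripts of 5 of the 7 receptors were higher in every Toxf/fPdcd1Cre library than in either Toxf/f library, while those of Klrd1, Ncr1 and the 3 adaptors overlapped between genotypes. Of all genes tested, 12.6% were likewise higher with no overlap. Klrk1 and Klrb1c were higher by 3.22-fold and 3.49-fold, Klrb1b by 5.78-fold, and Klra5 and Klrc2 by 7.76-fold and 8.44-fold in edgeR's fit over all genes. Of the 10 genes 9 passed the filter on low counts, and Ncr1 did not. Among these 9, Klrk1, Klrb1c, Klrc2 and Klra5 lay past an adjusted p of 0.05 (edgeR's quasi-likelihood test, adjusted over all genes by Benjamini-Hochberg), all 4 higher, where 19 of 14121 genes in all were called higher (0.135%) and 232 in either direction (1.64%). Since the genes were chosen on this contrast, nothing is read from that count. Klrb1b lay just outside the threshold and Klra5 just inside it. The count was 4 without Toxf/fPdcd1Cre replicate 1, with the same 4 genes. It was 4 without Toxf/fPdcd1Cre replicate 2, with Klrb1b in place of Klrc2, and 3 without Toxf/fPdcd1Cre replicate 3, namely Klrk1, Klrb1c and Klrb1b. It was 1, Klrk1, with age as a covariate, and 0 without the file shared by Toxf/f replicates 1 and 2 or without Toxf/f replicate 3. In bulk RNA a change in the number of cells that express a gene cannot be told apart from a change in RNA per cell.

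**Figure D1:**
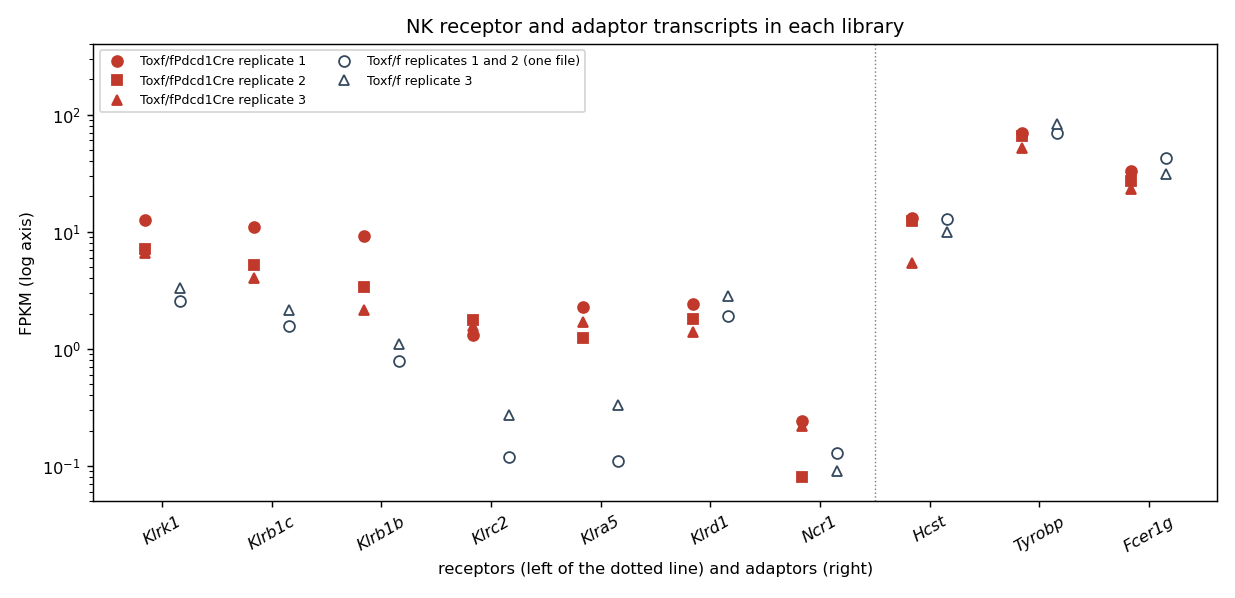
FPKM (log axis) of the 7 receptors and 3 adaptors in each of the 5 distinct libraries, Toxf/fPdcd1Cre as filled red symbols on the left of each gene and Toxf/f as open symbols on the right. The groups are separate for Klrk1, Klrb1c, Klrb1b, Klrc2 and Klra5 and overlap for Klrd1, Ncr1 and all 3 adaptors, and Tyrobp and Fcer1g lie above every receptor in every library.

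The sequences around the RefSeq starts of 4 of the receptors that were higher, and of the 2 adaptors for which a sequence was at hand, are shown so that the receptor and adaptor promoters can be compared. RefSeq promoter windows on GRCm38.p6, from 250 bases before to 50 after a start, matched 8 of the 10 genes. No window was matched for Klrd1 and Tyrobp. The window of Klra5, which was also higher, was matched but is not shown. Capitals mark TGTGGT or its reverse complement ACCACA, a core that RUNX factors bind, and RUNX proteins act in T and NK cell development. Each sequence is written 5′ to 3′ on the gene's own strand, which is the minus strand for all 6.
Klrk1, chr6:129623815-129624114: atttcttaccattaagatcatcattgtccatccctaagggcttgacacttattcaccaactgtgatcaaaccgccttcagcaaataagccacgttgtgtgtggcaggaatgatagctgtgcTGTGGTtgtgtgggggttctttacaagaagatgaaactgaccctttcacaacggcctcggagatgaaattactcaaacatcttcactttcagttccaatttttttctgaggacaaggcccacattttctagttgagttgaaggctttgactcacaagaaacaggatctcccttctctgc
Klrb1c, chr6:128788592-128788891: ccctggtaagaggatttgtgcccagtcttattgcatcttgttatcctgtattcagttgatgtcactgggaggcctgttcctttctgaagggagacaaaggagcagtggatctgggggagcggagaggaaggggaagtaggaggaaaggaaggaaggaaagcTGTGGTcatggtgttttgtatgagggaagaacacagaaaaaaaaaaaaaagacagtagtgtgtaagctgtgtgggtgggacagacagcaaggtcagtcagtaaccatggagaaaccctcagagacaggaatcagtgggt
Klrb1b, chr6:128826266-128826565: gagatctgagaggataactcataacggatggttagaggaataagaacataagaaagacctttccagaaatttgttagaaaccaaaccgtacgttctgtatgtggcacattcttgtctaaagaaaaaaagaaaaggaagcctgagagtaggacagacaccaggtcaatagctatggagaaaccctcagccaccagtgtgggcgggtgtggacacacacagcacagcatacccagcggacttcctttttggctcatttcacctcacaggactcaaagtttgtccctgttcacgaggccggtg
Klrc2, chr6:129660547-129660846: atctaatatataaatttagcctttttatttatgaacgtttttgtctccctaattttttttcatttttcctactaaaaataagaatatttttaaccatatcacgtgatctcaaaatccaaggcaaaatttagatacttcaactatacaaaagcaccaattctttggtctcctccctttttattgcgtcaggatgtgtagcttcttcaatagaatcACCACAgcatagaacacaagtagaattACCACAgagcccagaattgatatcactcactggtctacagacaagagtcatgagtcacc
Hcst, chr7:30419805-30420104: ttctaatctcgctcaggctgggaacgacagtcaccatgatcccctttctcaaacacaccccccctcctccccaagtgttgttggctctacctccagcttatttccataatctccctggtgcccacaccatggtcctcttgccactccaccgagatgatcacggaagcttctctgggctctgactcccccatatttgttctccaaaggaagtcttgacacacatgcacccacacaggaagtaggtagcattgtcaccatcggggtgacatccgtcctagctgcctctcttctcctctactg
Fcer1g, chr1:171234300-171234599: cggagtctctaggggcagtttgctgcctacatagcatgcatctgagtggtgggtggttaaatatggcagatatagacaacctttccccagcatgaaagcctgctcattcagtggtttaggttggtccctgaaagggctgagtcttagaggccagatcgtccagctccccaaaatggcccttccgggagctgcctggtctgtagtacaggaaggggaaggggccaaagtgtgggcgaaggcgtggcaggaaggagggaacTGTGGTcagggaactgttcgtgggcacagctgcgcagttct

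The RUNX core was found in the windows of Klrk1, Klrb1c, Klrc2, Ncr1 and Fcer1g, with 2 copies each in Klrc2 and Ncr1, and in 16.8% of the 32851 windows of all genes. The letters AGGAAG or CTTCCT, a core of ETS factors, were in the windows of Klrb1c, Klrb1b, Hcst and Fcer1g and in 35.4% of all windows. The letters GGTGTGA or TCACACC, a core of T-box factors such as T-bet and Eomes, were in none of the 8 windows and in 3.98% of all windows. None of the 3 motifs contains another, and each was searched on both strands, in the first listed window of each member. The receptors that were higher and the genes that were not both include windows with and without each of the first 2 motifs. The window of Klra5 held 0 matches to each of the 3 motifs. A match of letters is a description and not a bound site.

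Klrk1 encodes NKG2D, an activating receptor for ligands that stressed cells display, and pairs with DAP10 and, in mice, also with DAP12. It lies on chromosome 6 from 129610323 to 129623864 in GRCm38. It had 262, 169 and 154 counts in Toxf/fPdcd1Cre libraries, against 58 and 73 in Toxf/f libraries. It stood at 12.59, 7.16 and 6.58 FPKM in Toxf/fPdcd1Cre, against 2.56 and 3.29 FPKM in Toxf/f. Every Toxf/fPdcd1Cre library was above both Toxf/f libraries, with replicate 1 the highest. The log2 fold change was 1.69 ± 0.292 (SE), and 1.35 without Toxf/fPdcd1Cre replicate 1. Klrk1 was the receptor with the highest FPKM in each of the 5 libraries. None of its 4331 transcript 50-mers (stretches of 50 bases) occurred in another gene of GENCODE M21.

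Klrb1c encodes NK1.1, an activating receptor of NK and natural killer T cells in C57BL/6 mice that signals through the Fc receptor gamma chain. It had 300, 166 and 123 counts in Toxf/fPdcd1Cre libraries, against 49 and 73 in Toxf/f libraries. Its level was 10.86, 5.22 and 4.01 FPKM in Toxf/fPdcd1Cre, against 1.57 and 2.16 FPKM in Toxf/f. The genotypes did not overlap, and Toxf/fPdcd1Cre replicate 1 was again the highest. Its log2 fold change was 1.80 ± 0.374 (SE), and 1.29 without that library. Of its 3003 transcript 50-mers 17.0% occur in other genes, most of them in the predicted gene Gm44511. Its estimated counts were whole numbers in every library, so they show no division of reads between Klrb1c and its relatives.

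Klrb1b encodes an inhibitory NKR-P1 receptor whose ligand is the product of Clec2d. It stood at 9.12, 3.35 and 2.14 FPKM in Toxf/fPdcd1Cre libraries, against 0.79 and 1.09 FPKM in Toxf/f libraries. The genotypes did not overlap, but more than any other receptor of the set Klrb1b rested on Toxf/fPdcd1Cre replicate 1, which held 3.36 times the mean CPM of the other Toxf/fPdcd1Cre libraries. In the fit its log2 fold change was 2.53 ± 0.593 (SE), 1.65 without that library and 3.26 without Toxf/f replicate 3. Klrb1b lies on chromosome 6 from 128813706 to 128826331, and Gm44511 overlaps both Klrb1c and Klrb1b on the same strand. Of the 2322 transcript 50-mers of Klrb1b, 25.5% also occur in Gm44511. The estimated counts of the 2 genes were fractional but their sums were whole numbers in 5 of 5 libraries (within 0.011), so reads were divided between them. The summed counts of Klrb1b and Gm44511 were 289, 108 and 93 in Toxf/fPdcd1Cre libraries, against 24 and 49 in Toxf/f libraries. Scaled to library size, the sum averaged 11.01 ± 7.57 CPM (SD, n = 3) in Toxf/fPdcd1Cre and 2.24 ± 1.00 CPM (SD, n = 2) in Toxf/f libraries, a ratio of 4.91. Without Toxf/fPdcd1Cre replicate 1 the mean was 6.65 CPM in Toxf/fPdcd1Cre and the ratio 2.96.

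Klrc2 encodes NKG2C, an activating receptor that binds the class Ib molecule Qa-1 as a dimer with CD94 and signals through DAP12. It had 24.74, 26 and 21.75 counts in Toxf/fPdcd1Cre libraries, against 2 and 4 in Toxf/f libraries. Its level was 1.3, 1.75 and 1.58 FPKM in Toxf/fPdcd1Cre, against 0.12 and 0.27 FPKM in Toxf/f. The Toxf/fPdcd1Cre libraries lay close together and replicate 1 was the lowest of them by FPKM. The log2 fold change was 3.08 ± 0.642 (SE), and 3.00 without Toxf/fPdcd1Cre replicate 1, the 1 library whose omission left Klrc2 past the threshold. The ratio of counts per total count, 72 in Toxf/fPdcd1Cre and 6 in Toxf/f, was 8.27 with an exact 95% counting interval of 3.62 to 23.3. Klrc2 shares 7.09% of its 3130 transcript 50-mers with Klrc3 and 2.33% with Klrc1, the inhibitory NKG2A gene. The counts of Klrc2, Klrc1 and Klrc3 added up to whole numbers in 5 of 5 libraries, 40, 51 and 44 in Toxf/fPdcd1Cre, against 13 and 22 in Toxf/f, a ratio of 2.79 on the CPM scale.

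Klra5 encodes Ly49E, an inhibitory receptor of the Ly49 family. It had 37, 23 and 28 counts in Toxf/fPdcd1Cre libraries, against 2 and 6 in Toxf/f libraries. Its level was 2.26, 1.24 and 1.69 FPKM in Toxf/fPdcd1Cre, against 0.11 and 0.33 FPKM in Toxf/f. The genotypes were apart by counts and by FPKM, at levels near the lower limit of these libraries. Klra5 had a log2 fold change of 2.96 ± 0.647 (SE), and 3.86 without Toxf/f replicate 3. The counting interval of the ratio, 88 against 8 counts, ran from 3.69 to 18.1.

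Klrd1 encodes CD94, the partner chain without which NKG2A and NKG2C do not reach the surface. It had 31, 26 and 16 counts in Toxf/fPdcd1Cre libraries, against 24 and 36 in Toxf/f libraries. Its level was 2.43, 1.79 and 1.40 FPKM in Toxf/fPdcd1Cre, against 1.92 and 2.83 FPKM in Toxf/f. The genotypes overlapped, and the log2 fold change was -0.19 ± 0.462 (SE), with a sign that turned without Toxf/f replicate 3 or without Toxf/fPdcd1Cre replicate 3. By FPKM Klrd1 was above Klrc2 in 4 of 5 libraries, all but Toxf/fPdcd1Cre replicate 3.

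Ncr1 encodes NKp46, a defining receptor of NK cells that signals through the Fc receptor gamma chain and the CD3 zeta chain. It had 5, 2 and 5 counts in Toxf/fPdcd1Cre libraries, against 3 and 2 in Toxf/f libraries, which was under the filter. The ratio of counts per total count was 1.65, with an exact 95% counting interval of 0.543 to 6.00 that covers counting error only, so no difference was detectable at this depth. At 0.08 to 0.24 FPKM in Toxf/fPdcd1Cre and 0.09 to 0.13 FPKM in Toxf/f libraries Ncr1 had the lowest mean of the 10 genes, although Klra5 and Klrc2 were below it in the file of Toxf/f replicates 1 and 2.

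The adaptors did not share the pattern of the 5 receptors, since all 3 overlapped between genotypes. Hcst, whose DAP10 product carries the signal of NKG2D, had 81, 87 and 36 counts in Toxf/fPdcd1Cre libraries, against 86 and 71 in Toxf/f libraries. It stood at 12.98, 12.26 and 5.36 FPKM in Toxf/fPdcd1Cre, against 12.74 and 10.01 FPKM in Toxf/f. The genotypes overlapped by FPKM, with Toxf/fPdcd1Cre replicate 3 the lowest of all libraries and replicate 1 the highest. The log2 fold change was -0.11 ± 0.369 (SE), with a sign that turned without Toxf/f replicates 1 and 2 or without Toxf/fPdcd1Cre replicate 3.

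Tyrobp was the most abundant gene of the set. It stood at 70.09, 65.78 and 52.28 FPKM in Toxf/fPdcd1Cre libraries, against 68.90 and 82.78 FPKM in Toxf/f libraries, from 474 to 793 counts. The genotypes overlapped, and the log2 fold change was -0.22 ± 0.153 (SE). Tyrobp and Hcst are neighbours on chromosome 7 that point towards each other with 126 bases between their annotated ends, Tyrobp from 30413760 to 30417585 and Hcst from 30417712 to 30419854. Neither shares a 50-mer with another gene.

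Fcer1g, on chromosome 1, stood at 33.02, 27.20 and 23.15 FPKM in Toxf/fPdcd1Cre libraries, against 42.92 and 31.15 FPKM in Toxf/f libraries. Toxf/fPdcd1Cre replicate 1 lay between the Toxf/f libraries and the others below both. The log2 fold change was -0.36 ± 0.193 (SE). All 3 adaptors thus had fitted values below 0, and each lay between the 5th and 95th percentile of all genes tested, -1.05 and 0.41.

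**Figure D2:**
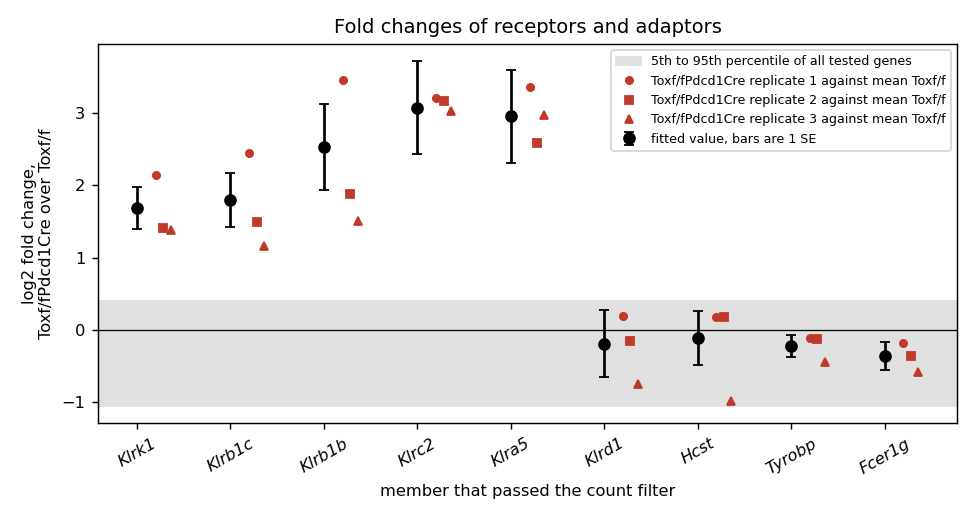
Log2 fold change of Toxf/fPdcd1Cre over Toxf/f for the 9 genes that passed the count filter: black points are the fitted values with 1 SE, red symbols each Toxf/fPdcd1Cre library against the mean Toxf/f CPM, and the grey band the 5th to 95th percentile of all 14121 genes. Klrk1, Klrb1c, Klrb1b, Klrc2 and Klra5 lie above the band in every library, and Klrd1, Hcst, Tyrobp and Fcer1g have fitted values inside it.

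Klrc2 and Klra5 passed the filter on low counts only through the Toxf/fPdcd1Cre libraries, and Ncr1 did not pass it, so the median of the receptors that passed supports nothing and is given for description. The 6 receptors that passed the filter had a median log2 fold change of 2.17, 5 of 6 above 0, and the 3 adaptors a median of -0.22, 0 of 3 above 0, beside a median of 0.03 with 54.8% above 0 for all 14121 genes. With no filter, the median over all 7 receptors was 1.81. Without Toxf/fPdcd1Cre replicate 1 these medians were 1.502 for the receptors and -0.32 for the adaptors. Summed over the 7 receptors, FPKM was 38.80, 20.59 and 17.62 in Toxf/fPdcd1Cre libraries, against 7.20 and 10.06 in Toxf/f libraries. Summed over the 3 adaptors it was 116.09, 105.24 and 80.79 in Toxf/fPdcd1Cre, against 124.56 and 123.94 in Toxf/f. Adaptor transcripts outnumbered receptor transcripts per length in every library, by 2.99 to 5.11 times in Toxf/fPdcd1Cre and by 12.3 and 17.3 times in Toxf/f libraries. The ratio of the receptor sum to the adaptor sum averaged 0.249 ± 0.0744 (SD, n = 3) in Toxf/fPdcd1Cre and 0.0695 ± 0.0165 (SD, n = 2) in Toxf/f libraries. That is 3.59 times higher in Toxf/fPdcd1Cre, and 2.98 times higher without Toxf/fPdcd1Cre replicate 1.

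Klrk1 and Hcst form the closest pair of receptor and dedicated adaptor in the set. The ratio of Klrk1 to Hcst FPKM was 0.970, 0.584 and 1.23 in Toxf/fPdcd1Cre libraries, against 0.201 and 0.329 in Toxf/f libraries. In Toxf/f libraries Hcst was thus well above Klrk1, and in Toxf/fPdcd1Cre replicate 3 it was below it. Klrc2 and Klrd1, which form another pair, stood in mean at 1.54 FPKM for Klrc2 and 1.87 FPKM for Klrd1 in Toxf/fPdcd1Cre libraries. In Toxf/f libraries the means were 0.195 FPKM for Klrc2 and 2.38 FPKM for Klrd1.

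**Figure D3:**
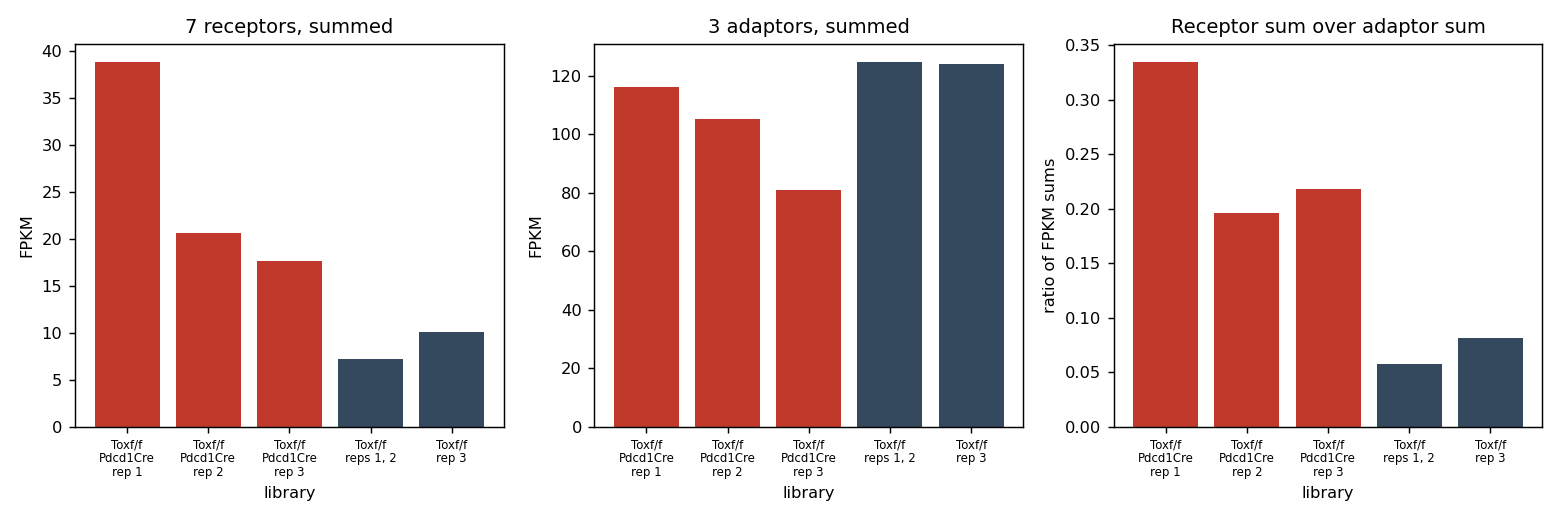
Summed FPKM of the 7 receptors, summed FPKM of the 3 adaptors and the ratio of the sums, 1 bar per library, with Toxf/fPdcd1Cre in red and Toxf/f in dark blue and each axis starting at 0. Receptor sums and ratios are higher in all 3 Toxf/fPdcd1Cre libraries, while the adaptor sums are 116.09, 105.24 and 80.79 in Toxf/fPdcd1Cre against 124.56 and 123.94 in Toxf/f libraries.

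The 5 receptors were higher in Toxf/fPdcd1Cre at both ages. At 3 weeks the mean CPM of Toxf/fPdcd1Cre replicates 1 and 2 over the shared Toxf/f file was 3.86 for Klrk1, 4.96 for Klrb1c and 12.2 for Klrb1b. Replicate 2 alone gave 2.90 for Klrk1, 3.38 for Klrb1c and 6.11 for Klrb1b at 3 weeks. At 4 weeks, with 1 library per genotype, the ratios were 2.41, 1.92 and 2.04. For Klrc2 they were 13.1 at 3 weeks and 6.28 at 4 weeks, and for Klra5 15.6 at 3 weeks and 5.33 at 4 weeks. Without Toxf/fPdcd1Cre replicate 1 the ratio at 3 weeks was 12.96 for Klrc2 and 11.5 for Klra5. The adaptors Hcst and Tyrobp had ratios of 1.01 and 1.00 at 3 weeks and 0.579 and 0.683 at 4 weeks. Fcer1g had ratios of 0.711 at 3 weeks and 0.803 at 4 weeks.

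Killer lectin-like receptor genes cluster in the natural killer gene complex on chromosome 6, so the choice of genes fixes much of their position. All of the 7 receptors but Ncr1 lie there, 6 in all. The stretch from the start of Klrb1c at 128778485 to the end of Klra5 at 129917650, bounded by members of the set and not by the complex, spans 1139 kb with 33 genes of the files, 20 of them tested. Neighbours of the higher receptors differed among themselves. Gm44511 overlaps both Klrb1c and Klrb1b in position and shares reads with Klrb1b. It had 33.07, 15.59 and 27.29 counts in Toxf/fPdcd1Cre libraries, against 9.48 and 12.31 in Toxf/f libraries, with no overlap between genotypes. Klrd1, at a log2 fold change of -0.19, is separated by 11547 bases from Klrk1, at 1.69. Of the 14 other tested genes in the stretch 0 were called higher and 1 lower, beside 1.64% of all genes. By CPM the genotypes did not overlap for 11 of these 14, 6 higher and 5 lower, beside 26.2% of all genes tested. The gene called was Cd69, an early activation marker that also holds cells in tissue, at -0.93 ± 0.203 (SE; adjusted p = 0.0438, edgeR). Cd69 lost its call without either Toxf/f library or with Toxf/fPdcd1Cre replicate 3 left out (adjusted p = 0.308, 0.398 and 0.0815), and with age as a covariate (adjusted p = 0.1). The median of these 14 genes was 0.31, with 9 of 14 above 0.

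**Figure D4:**
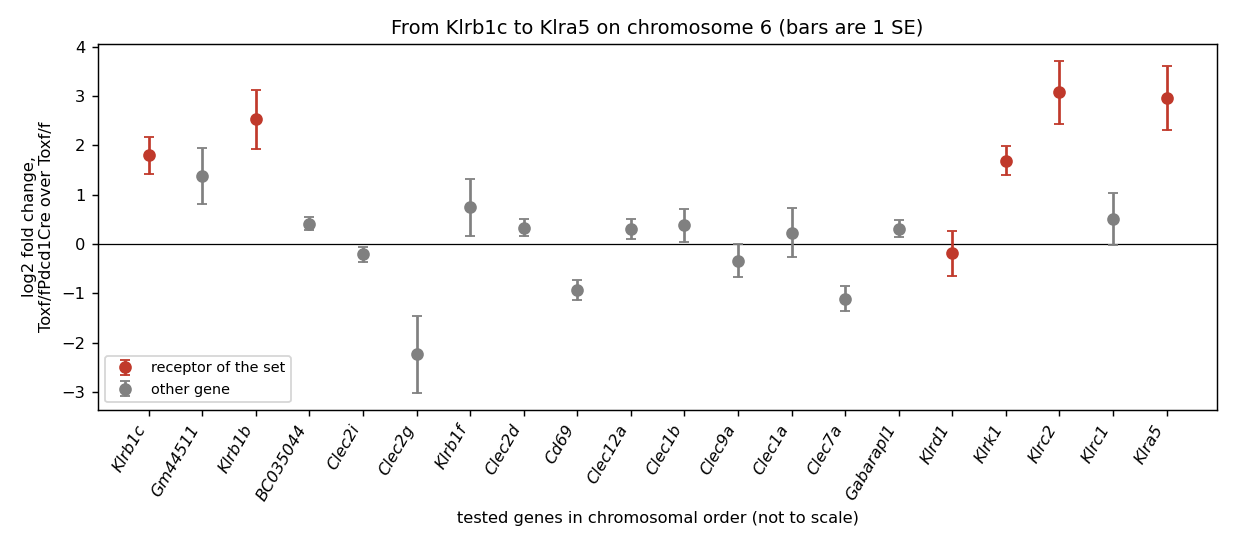
Log2 fold change of Toxf/fPdcd1Cre over Toxf/f with 1 SE for the 20 tested genes from Klrb1c to Klra5 in chromosomal order, the receptors of the set in red and other genes in grey. Klrb1c, Klrb1b, Klrk1, Klrc2 and Klra5 stand highest, Klrd1 lies at -0.19, and Clec2g, Clec7a and Cd69 lie lowest.

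Other NK receptor genes were mostly scarce. Of 28 listed, 27 were in the files, 3 of them at 0 in every library (Klra8, Klra10 and Klrh1), and 9 were tested. None was called higher and 1 was called lower, with a median of -0.17. At an unadjusted p under 0.05 edgeR had 1 higher and 2 lower, and DESeq2 and limma-voom each called 1. The higher one was Klra1, another Ly49 gene, named after its values were seen. It stood at 1.68, 0.52 and 0.47 FPKM in Toxf/fPdcd1Cre libraries, against 0.12 and 0.26 FPKM in Toxf/f libraries, with no overlap (log2 fold change 2.23 ± 0.763, adjusted p = 0.262, edgeR). By CPM 6 of the 9 tested genes did not overlap, in either direction, beside 26.2% of all genes tested. The gene called was Crtam, an adhesion receptor of activated lymphocytes, at 0.16, 0.30 and 0.18 FPKM in Toxf/fPdcd1Cre libraries, against 1.02 and 1.27 FPKM in Toxf/f (log2 fold change -2.57 ± 0.490, adjusted p = 0.0239, edgeR). Without Toxf/f replicates 1 and 2, without Toxf/f replicate 3 or without Toxf/fPdcd1Cre replicate 3 its call ended (adjusted p = 0.166, 0.361 and 0.0988), as it did with age as a covariate (adjusted p = 0.0817).

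The ligands of these receptors did not pass the test. Of 16 listed, 12 were in the files and 6 were tested, 0 called in either direction, with a median of -0.33. At an unadjusted p under 0.05 edgeR had 2 of the 6 lower and 0 higher, and DESeq2 and limma-voom also called 0. H2-T23, which encodes the Qa-1 molecule bound by CD94 and NKG2 receptors, stood at 93.28, 102.98 and 75.49 FPKM in Toxf/fPdcd1Cre libraries, against 125.70 and 138.67 FPKM in Toxf/f (log2 fold change -0.49 ± 0.146, adjusted p = 0.173, edgeR). Clec2i, a ligand of NKR-P1 receptors, was at -0.20 ± 0.149 (adjusted p = 0.750, edgeR). Of the 6 tested ligand genes 2 were above 0. Clec2d, the ligand gene given above for Klrb1b, was at 0.34 ± 0.170 (adjusted p = 0.544, edgeR). Its CPM did not overlap between genotypes, and it was named after its values were seen. Of the 6 tested ligand genes 4 did not overlap, beside 26.2% of all genes tested. H2-T23, Clec2i and Clec2g also did not overlap, each of them lower in Toxf/fPdcd1Cre. Without Toxf/fPdcd1Cre replicate 1, 1 of the 6 was called lower, Clec2g, at -2.23 ± 0.782 over all libraries, which was chosen for naming after its value was seen.

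Like the adaptors, no other listed signalling gene was called. Of 24 tested kinases, scaffold proteins and enzymes that act after the activating chains, 0 were called and the median log2 fold change was -0.05. At an unadjusted p under 0.05 edgeR had 2 of the 24 lower and 0 higher, and DESeq2 and limma-voom called 0. Lck, the kinase that phosphorylates ITAM tyrosines, was at 0.08 ± 0.146 and the scaffold gene Lat at -0.04 ± 0.153 (adjusted p = 0.929 and 0.974, edgeR). Of 6 other chains with activation motifs 0 were called, and 1 was lower at an unadjusted p under 0.05 (edgeR). Among them was Cd247, the CD3 zeta chain that NKp46 also uses, at 326 to 398 FPKM in Toxf/fPdcd1Cre and 357 to 387 FPKM in Toxf/f libraries (log2 fold change 0.03 ± 0.152, adjusted p = 0.983, edgeR). Of 3 phosphatase genes of inhibitory receptors 0 were called and 0 had an unadjusted p under 0.05 (edgeR), Ptpn6 at 0.10 ± 0.130 and Inpp5d at 0.07 ± 0.135 among them (adjusted p = 0.895 and 0.933, edgeR).

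Genes of NK cells other than their receptors gave no higher call. Of 25 tested NK lineage genes 0 were called higher and 1 lower, with a median of -0.31 and 7 of 25 above 0. Among all genes tested 0.135% were called higher, 1.51% were called lower and 54.8% were above 0. At an unadjusted p under 0.05 edgeR had 3 higher and 9 lower, beside 435 higher and 1025 lower of all 14121 genes. DESeq2 called 4 of the list in either direction. The gene called was Ccl5, a chemokine of cytotoxic cells, at 31.40, 13.23 and 11.26 FPKM in Toxf/fPdcd1Cre libraries, against 61.20 and 76.37 FPKM in Toxf/f (log2 fold change -1.85 ± 0.318, adjusted p = 0.0143, edgeR). It was not called without either Toxf/f library (adjusted p = 0.133 and 0.294), and stood at -2.44 without Toxf/fPdcd1Cre replicate 1. The summed FPKM of the 29 genes was 478 to 592 in Toxf/fPdcd1Cre and 593 to 595 in Toxf/f libraries, and no gene of the list was at 0 in all libraries. Without Toxf/fPdcd1Cre replicate 1, 4 of the 25 were called lower and 0 higher. They were Id2, Il2rb, Il15ra and Ccl5.

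Some gamma-delta T cell genes were higher along with the receptors. Of 14 tested 3 were called higher and 0 lower, with a median of 0.43 and 12 of 14 above 0. The median fell to 0.13 without Toxf/fPdcd1Cre replicate 1. Of all genes tested 0.135% were called higher and 54.8% were above 0. At an unadjusted p under 0.05 edgeR had 6 of the 14 higher and 0 lower. Cd163l1, a scavenger receptor gene of gamma-delta T cells, stood at 23.90, 7.87 and 7.24 FPKM in Toxf/fPdcd1Cre libraries, against 1.66 and 1.02 FPKM in Toxf/f (log2 fold change 3.35 ± 0.489, and 2.59 without Toxf/fPdcd1Cre replicate 1). The related gene 5830411N06Rik was at 11.41, 8.38 and 6.19 FPKM in Toxf/fPdcd1Cre, against 1.04 and 3.10 FPKM in Toxf/f (2.10 ± 0.374, and 3.09 without Toxf/f replicate 3). Trdc, the constant gene of the delta chain, was at 86.47, 55.31 and 57.53 FPKM in Toxf/fPdcd1Cre, against 41.84 and 33.78 FPKM in Toxf/f (0.86 ± 0.187). The adjusted p-values of these 3 genes were 0.00552, 0.0169 and 0.0437 (edgeR). All 3 lost their call without the file of Toxf/f replicates 1 and 2, Cd163l1 and Trdc also without Toxf/f replicate 3, and Trdc when Toxf/fPdcd1Cre replicate 3 was left out (adjusted p = 0.0666 to 0.588). All 3 held without Toxf/fPdcd1Cre replicate 1, and with age as a covariate Trdc did not (adjusted p = 0.0789). The summed FPKM of the 15 gamma-delta genes in the files was 539, 385 and 387 in Toxf/fPdcd1Cre libraries, against 320 and 327 in Toxf/f libraries, highest in Toxf/fPdcd1Cre replicate 1, as were Klrk1, Klrb1c and Klrb1b. None of the 15 was at 0 in all libraries. The part of gamma-delta T cells in the receptor levels was not tested.

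The innate-like T cell list had 0 of 9 tested genes higher and 1 lower, Zbtb7b, the factor ThPOK of the CD4 lineage (log2 fold change -1.76 ± 0.261, adjusted p = 0.00590, edgeR), which was not called without either Toxf/f library (adjusted p = 0.0529 and 0.209). Zbtb16, the PLZF factor of innate-like T cells, was at 4.06, 0.73 and 0.75 FPKM in Toxf/fPdcd1Cre, against 0.47 and 1.51 FPKM in Toxf/f. It was highest in Toxf/fPdcd1Cre replicate 1 and was named after its values were seen. Summed over the 10 innate-like genes, FPKM was 177.8, 189.42 and 182.56 in Toxf/fPdcd1Cre libraries, against 170.42 and 171.88 in Toxf/f libraries, with no overlap. Of 8 tested genes of innate lymphoid cells 0 were higher and 2 lower, Lta at -1.86 ± 0.366 and Il7r at -0.75 ± 0.166 (adjusted p = 0.0277 and 0.0496, edgeR). Neither Lta nor Il7r was called when any library other than Toxf/fPdcd1Cre replicate 1 was left out, or with age as a covariate (adjusted p = 0.0743 and 0.113).

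Tyrobp and Fcer1g are also genes of myeloid cells, and no myeloid list gave a higher call. Of 17 tested receptors of other blood cells that use these adaptors 0 were called, with 2 lower at an unadjusted p under 0.05 and a median of -0.09, among them Fcgr3 at -0.09 ± 0.171 and Clec4n at -0.01 ± 0.263 (adjusted p = 0.934 and 0.994, edgeR). Their summed FPKM was 74.1, 60.3 and 46.6 in Toxf/fPdcd1Cre libraries, against 69.5 and 67.4 in Toxf/f libraries. The adaptor sums had this order within Toxf/fPdcd1Cre, but so did the receptor, NK lineage and dendritic cell sums. The macrophage and monocyte sums did not. Of 16 macrophage and monocyte genes 1 was lower, the protease gene Ctss (log2 fold change -1.06 ± 0.150, adjusted p = 0.00458, edgeR), and 0 higher, with summed FPKM of 537 to 617 in Toxf/fPdcd1Cre and 891 to 913 in Toxf/f libraries. With Toxf/f replicate 3 left out the call of Ctss ended (adjusted p = 0.159). Of 16 dendritic cell genes 4 were lower and 0 higher, led by the chemokine gene Ccl22 at -2.81 ± 0.376 (adjusted p = 0.00302, edgeR; -3.61 without Toxf/fPdcd1Cre replicate 1), with H2-Eb1, Cd74 and Flt3 at -0.91, -0.74 and -1.05. Each of these 4 lost its call without either Toxf/f library, H2-Eb1, Cd74 and Flt3 also without Toxf/fPdcd1Cre replicate 3, and Cd74 without Toxf/fPdcd1Cre replicate 2. With age as a covariate Cd74 and Flt3 lost theirs (adjusted p = 0.072 and 0.0768). Without Toxf/fPdcd1Cre replicate 1, 3 macrophage and 6 dendritic cell genes were called lower and 0 higher. Of all genes tested 1.51% were called lower in the main fit. At an unadjusted p under 0.05 edgeR had 11 of the 16 dendritic cell genes lower and 0 higher. It had 4 of the 16 macrophage and monocyte genes lower and 1 higher. The summed FPKM of the dendritic cell genes was 1553 to 2029 in Toxf/fPdcd1Cre and 2618 to 3095 in Toxf/f libraries. No macrophage or dendritic cell gene was at 0 in all libraries, and the part of these cells in the adaptor levels was not tested.

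**Figure D5:**
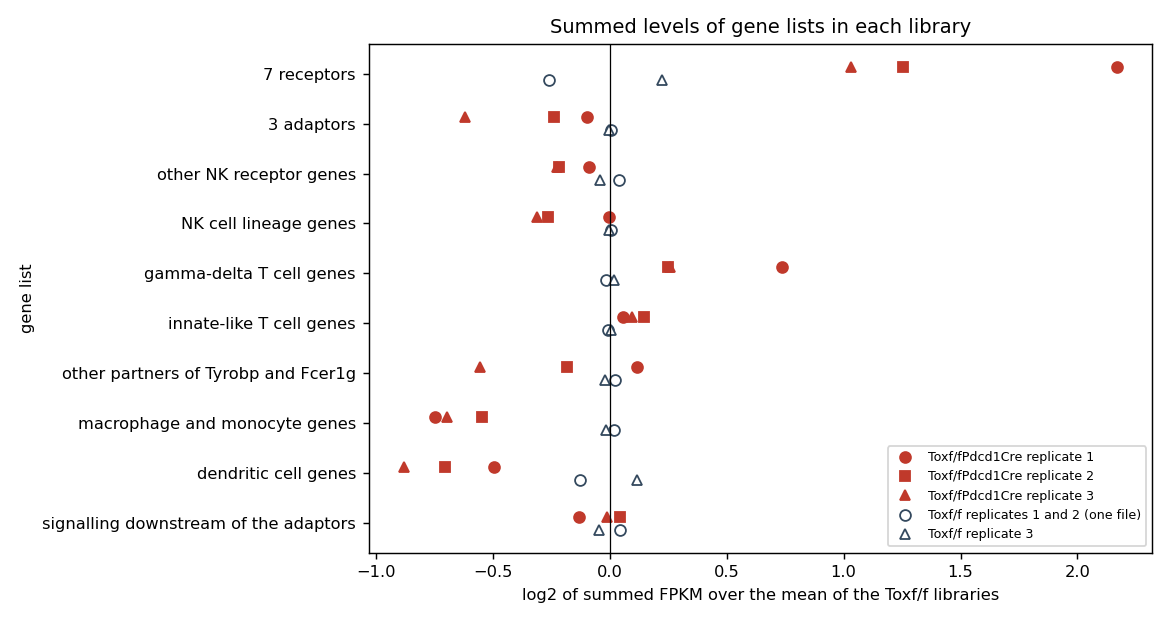
Summed FPKM of 10 gene lists in each library as a log2 ratio to the mean of the Toxf/f libraries, with Toxf/fPdcd1Cre as filled red symbols above Toxf/f as open symbols. Receptor, gamma-delta and innate-like T cell sums lie above 0 in all 3 Toxf/fPdcd1Cre libraries. Sums of the adaptors and of other NK receptor, NK lineage, macrophage and dendritic cell genes lie below it in all 3. The remaining lists lie on both sides of it.

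The remaining lists gave few calls. Of 10 neutrophil, 6 mast cell and basophil, 10 B cell and 5 erythroid genes tested edgeR called 0, with 0, 2, 3 and 3 at an unadjusted p under 0.05. Those of the B cell and erythroid lists were all lower, and the mast cell list had 1 higher and 1 lower. Among all 14121 genes 435 were higher and 1025 lower at that p. The erythroid median was -0.71, with 0 of 5 above 0. DESeq2 and limma-voom each called 1 mast cell and 1 B cell gene. Of 10 thymic epithelial genes 1 was called, the keratin gene Krt14 at -1.29 ± 0.253 (adjusted p = 0.0275, edgeR). Of 18 double-negative thymocyte genes 2 were lower, Cd44 at -0.67 ± 0.145 and Il7r (adjusted p of Cd44 = 0.0437, edgeR), and the 3 coreceptor genes gave 0 calls and 0 at an unadjusted p under 0.05. Krt14 and Cd44 were called neither without a Toxf/f library nor without Toxf/fPdcd1Cre replicate 3, and Cd44 not without Toxf/fPdcd1Cre replicate 2. Neither was called with age as a covariate (adjusted p = 0.0705 and 0.0955).

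By the distance between centred log2 CPM profiles over the 5 libraries, the genes most like Klrk1, the receptor with the highest mean CPM, were compared among 12759 named genes of at least 1 CPM. The nearest 5 were Akr1c12 at a distance of 0.340, Klrb1c at 0.414, Actn2 at 0.433, Akr1c13 at 0.508 and Sptssb at 0.538. Klrb1c was the only other receptor of the set among them. A likeness over 5 libraries of 2 genotypes is a description of these libraries.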

How the data were processed

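Per the labels' protocols, Trizol RNA of sorted thymocytes went into NEBNext Ultra libraries. For each sample the authors deposited a table of estimated counts and FPKM values per gene, per the file headers. The submitters' processing notes list StringTie 1.3.1, HISAT2 and fastp 0.18.0, with no roles. For the build, the strand setting and the counting tool the entry is: not given in the sources used here. Between 8.81% and 9.84% of counts per library were not whole, and counts were rounded for the tests. Sums of fractional counts used the values as deposited.

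The members and gene lists were chosen with earlier results of these data known. The identical files of Toxf/f replicates 1 and 2, whose headers both number the library 2, entered as 1 library. Genes were filtered with filterByExpr, which left 14121, scaled by TMM and tested with edgeR 4.0.16 (quasi-likelihood test under R 4.3.3) for Toxf/fPdcd1Cre over Toxf/f, using Benjamini-Hochberg adjustment at 0.05. CPM is scaled to TMM library sizes. Every member is named. Of each list, genes past the threshold (up to 4, smallest p first) are named, or else the 2 of highest mean FPKM; others say so. Of the names on the lists 272 of 283 were in the files. Alternatives used DESeq2 1.42.0 and limma 3.58.1. Ratios by age and summed counts without Toxf/fPdcd1Cre replicate 1, and the receptor median with no filter, were added after seeing the data. The test was checked on simulated counts: with 200 of 14121 genes changed 2-fold it recovered 73.5% with 8 false calls, and with 200 changed 4-fold 91.5% with 13. Changed genes were taken from those of at least 1 CPM on average. Counts were drawn with the spread fitted to genes of like level, with no extra spread by gene or library. Recovery in the real libraries may therefore be lower.

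GENCODE M21 (GRCm38) gave positions and transcript 50-mers for all 10 members by Ensembl identifier, and RefSeq the promoter windows. Intervals cover counting error only.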

Additional observations from a re-analysis of the deposited data

How the results depend on the processing

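The 5 receptors were above 0 in 17 of 17 alternatives. Their groups did not overlap in these same libraries, so that count was close to fixed in advance and supports nothing. Tyrobp and Fcer1g were below 0 in 17 of 17. Hcst turned to 0.0851 without Toxf/f replicates 1 and 2 and 0.18 without Toxf/fPdcd1Cre replicate 3, and Klrd1 to 0.0808 without Toxf/f replicate 3 and 0.0248 with Toxf/fPdcd1Cre replicate 3 left out. Over all libraries left out in turn Klrd1 ran from -0.46 to 0.0808 and Hcst from -0.32 to 0.18. Against 19 genes higher, 213 lower and 4 members higher, upper-quartile scaling gave 9 higher and 1 member, and no filter gave 48 higher and 369 lower. DESeq2 gave 43 higher and limma-voom 1 member. Limma on log2(FPKM + 1) gave 6 higher, 2 members and a receptor median of 1.21, and on log2(FPKM + 0.1) 8 higher, 134 lower and 2 members. Age as a covariate gave 9 higher, 116 lower and 1 member, and counting the identical files separately 55 higher and 325 lower. Leaving out 1 library gave 2 to 30 higher, 28 to 586 lower, 0 to 4 members, receptor medians of 1.502 to 2.66 and adaptor medians of -0.32 to -0.09. These causes were not tested. No member was called lower in the main fit, where 435 genes were higher and 1025 lower at an unadjusted p under 0.05.

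Whether the replicate numbers pair the samples was not settled. Same-numbered libraries correlated at -0.155 and -0.134 in their deviations, or 0.0733 with the shared file as number 2. With 2 distinct Toxf/f libraries the deviations of 1 mirror those of the other, so these values cannot decide it. A replicate block with the shared file as number 1 gave 95 higher and 340 lower. With it as number 2, chosen after seeing the data, the block gave 99 higher, 769 lower and a receptor median of 1.57. Counts of 2 to 6 for Klrc2 and Klra5 in Toxf/f libraries limit the precision of their folds.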
